A study of Mus musculus with 30 samples.

Results

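The genes described here are 10 genes of the blood vessels of the retina, 9 of them expressed by the endothelial cells that line the vessels and 1, Pdgfrb, by the pericytes that wrap them. They were chosen by name as Pecam1, Cdh5, Cldn5, Kdr, Flt1, Tek, Tie1, Esam, Eng and Pdgfrb, and each level is the sum over the transcripts of the gene. They are 10 of the 42439 gene identifiers in the deposited tables, and all 10 passed the filter on low counts in every comparison. The members were measured by RNA sequencing of the neural retina in 30 libraries of 10 groups, 3 libraries in each group.

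All mice were Abca4-/-Rdh8-/- on a C57BL/6J background. Abca4 encodes a transporter and Rdh8 an enzyme that clear all-trans-retinal from photoreceptors, and mice without both are used as a model of retinal damage by bright light. Mice of both sexes, 4 to 6 weeks old, had been kept at no more than 10 lux. In the mixture experiment the groups were BMT before light (BRM, MTP and TAM), MDB before light (MTP, DOX and BRM), light after DMSO, the drug solvent, and DMSO without light. The other, single-drug, experiment had BRM, MTP, TAM or DOX before light, then light after DMSO and DMSO without light. BRM is bromocriptine, a dopamine receptor agonist, MTP is metoprolol, a beta-adrenergic blocker, and TAM and DOX are tamsulosin and doxazosin, blockers of alpha-1-adrenergic receptors. Light was 10000 lux for 30 min, injections were given 30 min before it, and retinas were taken 24 h after it. No group of wild-type mice was analysed here, so every comparison is made within the double knockout. The labels do not say whether the 3 libraries of a group came from separate animals, nor whether retinas were pooled, so p-values measure the spread between these libraries, which may be technical.

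Retinal vessels grow and are maintained under vascular endothelial growth factor (VEGF), which signals mainly through the receptor encoded by Kdr and is bound as a trap by the receptor encoded by Flt1. Angiopoietins act through Tek with its partner Tie1, transforming growth factor and bone morphogenetic proteins act with the co-receptor Eng, and platelet-derived growth factor from the endothelium holds pericytes through Pdgfrb. Cdh5, Cldn5, Esam and Pecam1 make the contacts between endothelial cells that keep the blood-retina barrier tight. VEGF receptor RNA in mouse retina is not restricted to vessels: neurons and Müller glia have also been described to express Kdr.

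Flt1 makes a membrane receptor and a secreted form that lacks the kinase, and the deposited tables counted the transcripts apart. Both lie on the minus strand of chromosome 5 (GRCm38), Flt1-001 at 147561604 to 147726011 with 30 exons and 1333 coding codons, and Flt1-002 at 147635159 to 147725988 with 13 exons and 688 coding codons. Exons 2 to 12 are identical. Exon 13 of Flt1-001, at 147639225 to 147639533, is spliced to exon 14, whereas exon 13 of Flt1-002, at 147635159 to 147639533, reads on into the intron. The 2 stretches are shown because they are where reads tell the membrane form from the soluble form. In each, 30 bases of shared exon 13 are in lower case and the 30 bases that differ are in capitals, credited to GENCODE vM21.
Flt1-001: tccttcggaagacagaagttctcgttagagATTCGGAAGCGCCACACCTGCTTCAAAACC
Flt1-002: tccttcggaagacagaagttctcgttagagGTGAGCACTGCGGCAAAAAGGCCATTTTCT

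RefSeq promoters (GRCm38.p6) were matched by symbol for 6 of the 10 members: Cldn5, Kdr, Flt1, Tek, Tie1 and Eng. The 250 bases before the start are shown for Kdr and Flt1, the pair of VEGF receptors that lie on the same strand of chromosome 5 and are set against each other below. Kdr is at chr5:75978456-75978705 and Flt1 at chr5:147726012-147726261, both on the minus strand, and capitals mark GGAAG, the core recognised by ETS transcription factors, which are central regulators of endothelial genes, or its reverse complement.
Kdr: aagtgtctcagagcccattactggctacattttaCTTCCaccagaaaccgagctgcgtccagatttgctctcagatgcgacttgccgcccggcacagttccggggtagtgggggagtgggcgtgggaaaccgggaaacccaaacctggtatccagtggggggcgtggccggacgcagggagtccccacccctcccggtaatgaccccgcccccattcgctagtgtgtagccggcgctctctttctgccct
Flt1: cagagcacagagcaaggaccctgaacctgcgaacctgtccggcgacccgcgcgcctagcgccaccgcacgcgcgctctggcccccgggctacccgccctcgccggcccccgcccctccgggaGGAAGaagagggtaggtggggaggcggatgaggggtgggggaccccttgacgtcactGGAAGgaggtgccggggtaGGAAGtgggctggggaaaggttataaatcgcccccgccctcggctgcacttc
GGAAG was searched on both strands. It matched once in Kdr and 3 times in Flt1, 6 times in Tie1 and 2 times in Eng, and not in Cldn5 or Tek, and 64.1% of 32851 promoters of this length held it. GGGCGG, the GC box bound by Sp factors, matched 2 times in Kdr and 3 times in Flt1, and 32.7% of promoters held it. ACGTG, the core of hypoxia response elements, and TTCNNNGAA, the site of STAT factors, matched in none of the 6 windows, while 16.6% and 7.02% of promoters held them. These are matches of letters in a short window and not bound sites.

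Per length, Kdr was the most abundant of the 10 genes. Its mean was 21.9 FPKM, a level per length, over the 30 libraries, with a range of 10.9 to 58.8 FPKM. Flt1 followed at 7.69 FPKM (5.24 to 10.8), so the lowest Kdr library stood just above the highest Flt1 library. Esam averaged 3.72 FPKM and Cldn5 2.96 FPKM. Pdgfrb, the pericyte receptor, averaged 1.93 FPKM and ranged from 0.591 to 3.73 FPKM. Pecam1 averaged 1.54 FPKM, Tek 0.833 FPKM, Eng 0.691 FPKM, Cdh5 0.497 FPKM and Tie1 0.277 FPKM. The lowest Flt1 library was also above the highest Esam library, at 4.94 FPKM, but from Esam downwards neighbours in this order overlapped in their ranges over the libraries. The counts behind these levels ran from 1187 to 6092 per library for Kdr and from 616 to 1400 for Flt1, but from 12.6 to 60.7 for Cdh5 and from 6.26 to 54.7 for Tie1, so changes of the last genes were measured much less precisely.

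**Figure D1:**
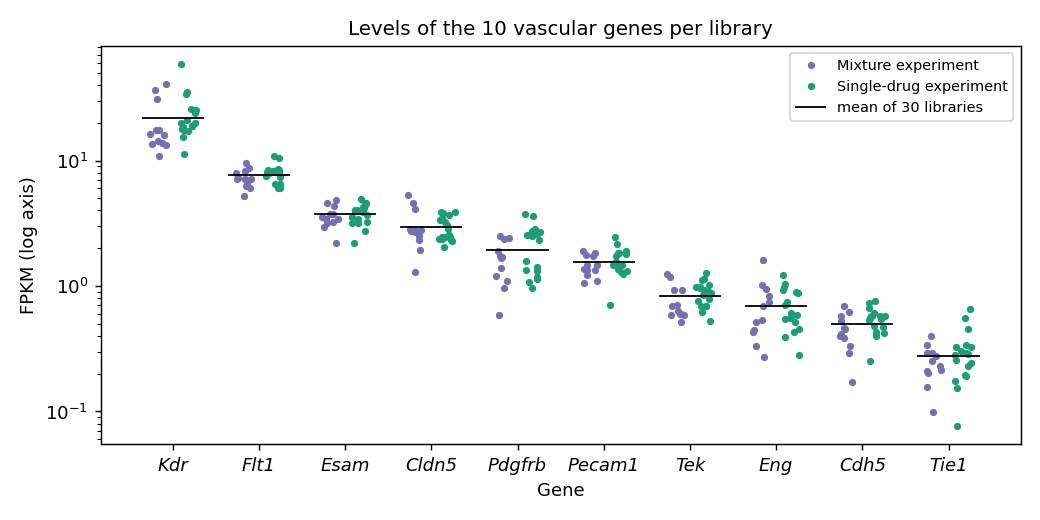
FPKM on a log axis for each of the 10 genes (horizontal axis, ordered by mean), with 1 point per library, mixture experiment on the left and single-drug experiment on the right of each gene, and the mean of 30 libraries as a line. Kdr, with a mean of 21.9 FPKM, lies above every other gene, and Tie1 is lowest at 0.277 FPKM.

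All 9 endothelial markers were detected in every library, as was Pdgfrb, so the retinas contained vessel RNA. The members did not move as a single block across libraries. The log2 CPM (counts scaled to library size) of Pecam1 had a Pearson r of 0.85 with the mean of the other endothelial members over the 12 libraries of the mixture experiment and 0.68 over the 18 of the single-drug experiment, but Tie1 had 0.26 and 0.24. Kdr had 0.65 and 0.51, and Pdgfrb 0.15 and 0.10 with the mean of the endothelial genes. These correlations are descriptions over libraries that share groups, depth and normalization. Counting error also lowers r for genes of low counts such as Tie1, at 6.26 to 54.7 counts per library.

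The 12 libraries with mixtures and their controls held 18.5 to 25.8 M gene counts each, and the 18 of the single-drug experiment 12.0 to 22.2 M. One TAM library stood apart from the others of its group: replicate 2 had 885 CPM of summed Müller glia markers, against 1852 and 1854 CPM in the other 2 libraries, and 276 CPM of the astrocyte list, against 79.8 and 55.8 CPM. Lens fibre transcripts varied widely between libraries, and their score, the mean log2 CPM of 6 lens genes, ran from 0.587 to 9.12 in the mixture experiment.

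The first question was what bright light did to the vascular genes without drug. Kdr, the main signalling receptor for VEGF, was about 2.3 times as high in light as in no-light retinas in both experiments, and it was the one member that passed the test. The other 9 genes, including Flt1, the second VEGF receptor, did not pass it in either experiment. In the mixture experiment 1 of 10 members was called against 13.2% of all 16007 genes tested, and in the single-drug experiment 1 of 10 against 24% of 16249, so the number of members called was not above the background. Called higher were 7.75% of all genes in the mixture and 11.4% in the single-drug experiment.

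Kdr (ENSMUSG00000062960, chromosome 5, 75932827 to 75978458) had 201, 181 and 160 CPM in the light libraries of the mixture experiment, against 79.8, 74.8 and 75.7 CPM in the no-light libraries. The groups did not overlap, and the 3 no-light libraries lay close together. The log2 fold change was 1.24 ± 0.14 (SE), a 2.36-fold rise (edgeR quasi-likelihood test, adjusted p = 0.000161). Kdr in the single-drug experiment had 175, 287 and 167 CPM in light and 66.1, 106 and 101 CPM in no-light libraries. Replicate 2 of light was far above the other 2 light libraries, and all 3 were above every no-light library. The log2 fold change was 1.21 ± 0.22, a 2.31-fold rise (edgeR, adjusted p = 0.00112). By p-value Kdr ranked 179 of 16007 genes in the mixture experiment and 824 of 16249 in the single-drug experiment.

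Kdr-001, the protein-coding transcript of 5924 bases, held 99.3 to 100% of Kdr counts in every library, so the rise was in the full-length receptor transcript and not in Kdr-002, a retained-intron transcript. The authors' deposited tables of changed transcripts, which hold 521 and 622 transcripts, contain Kdr-001 and no transcript of the other 9 members. They give Kdr-001 a log2 fold change of no light over light of -1.25 in the mixture table and -1.22 in the single-drug table.

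**Figure D2:**
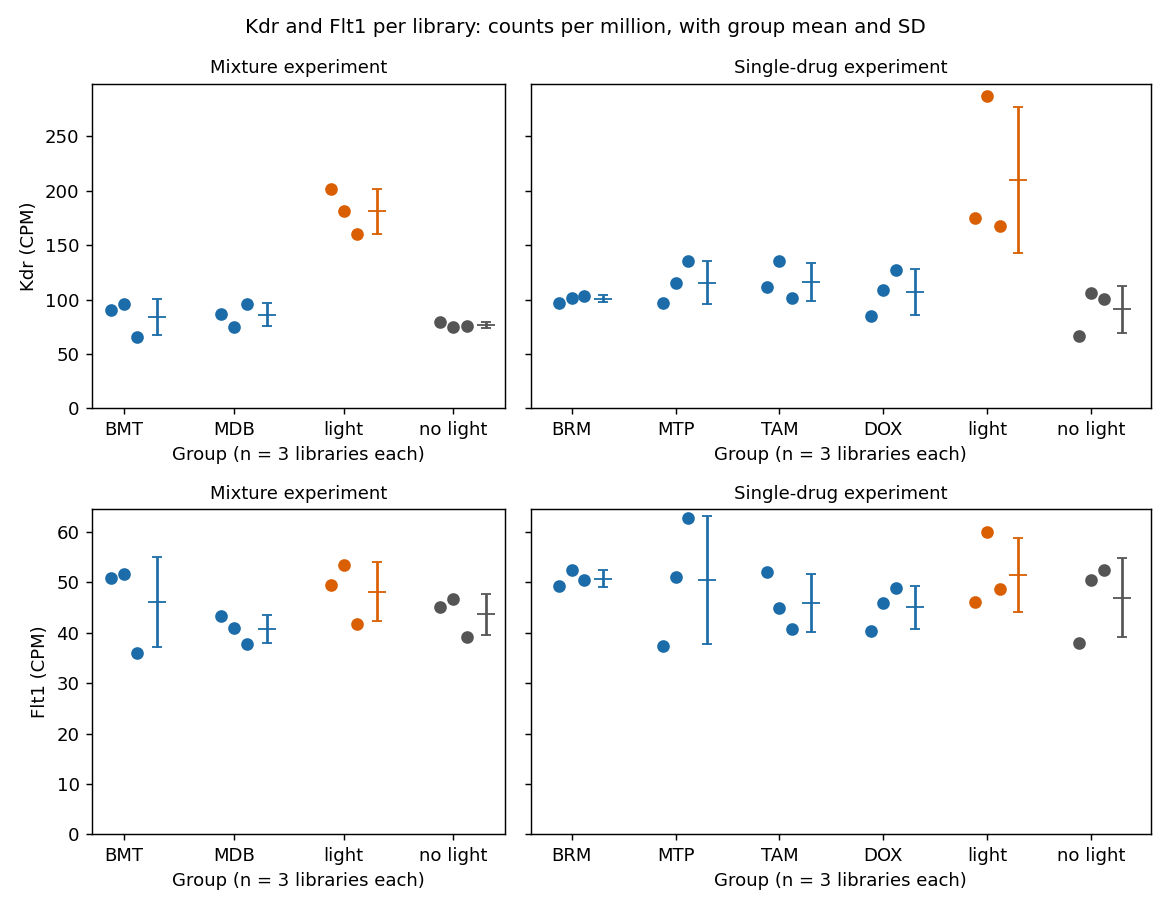
CPM of Kdr (top) and Flt1 (bottom) on the vertical axes by group, mixture experiment on the left and single-drug experiment on the right, with 1 point per library and the group mean ± SD beside the points (n = 3 each). Kdr in light libraries (160 to 201 and 167 to 287 CPM) lies above all libraries of the other groups of the same experiment, whereas Flt1 overlaps between light and every other group.

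Flt1 (ENSMUSG00000029648), which binds VEGF tightly and signals weakly, had 49.4, 53.4 and 41.7 CPM in light and 45.2, 46.8 and 39.1 CPM in no-light libraries of the mixture experiment. Its values in the single-drug experiment were 46.2, 59.9 and 48.6 CPM in light and 38.0, 50.4 and 52.5 CPM in no-light libraries. The groups overlapped in both. The log2 fold changes were 0.14 with a 95% interval of -0.16 to 0.45 and 0.13 with an interval of -0.22 to 0.49, and both intervals lie below the rise of Kdr. The log2 difference between Kdr and Flt1 in the same library was larger in light than in no-light libraries by 1.09 in the mixture and 1.05 in the single-drug experiment. A two-sided exact permutation test of the group labels within experiments gave p = 0.005, the smallest that its 400 permutations allow. This contrast was chosen after the values were seen, with Kdr already called higher in these libraries. It was computed against each of the other 9 members, with mean differences of 0.82 (Eng) to 1.14 (Cdh5). The unadjusted p ran from 0.005 to 0.025 in the same exact test, or 0.0075 to 0.025 adjusted over the 9 contrasts. All 9 contrasts share the Kdr values, so they are not independent of each other or of the Kdr call.

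The receptors of the angiopoietins, Tek and its partner Tie1, stayed within their spread. Tek had 3.6, 4.65 and 2.73 CPM in light and 2.59, 3.95 and 4.86 CPM in no-light libraries of the mixture experiment, with a log2 fold change of -0.051 ± 0.25, and 0.20 ± 0.27 in the single-drug experiment. Tie1 gave -0.15 ± 0.36 and 0.28 ± 0.52, with 95% intervals as wide as -0.93 to 0.64 and -0.82 to 1.37.

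Of the genes of endothelial junctions, Cdh5, the adherens junction cadherin, had log2 fold changes of 0.035 ± 0.29 and 0.12 ± 0.27, and Pecam1, an adhesion molecule of endothelial contacts, 0.045 ± 0.14 and 0.27 ± 0.25. Cldn5, the tight junction claudin of the barrier, had 6.28, 5.45 and 3.35 CPM in light against 2.64, 3.71 and 5.47 CPM in no-light libraries of the mixture experiment. Its groups overlapped there and in the single-drug experiment, with log2 fold changes of 0.35 ± 0.32 and 0.31 ± 0.21. Esam, a second adhesion molecule, had 5.93, 6.90 and 5.66 CPM in light and 5.28, 4.94 and 5.28 CPM in no-light libraries of the mixture experiment. Those groups did not overlap, yet the log2 fold change of 0.25 ± 0.16 did not pass the test (edgeR, adjusted p = 0.345), and in the single-drug experiment it was -0.013 ± 0.20.

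Eng, the co-receptor endoglin, had 2.68, 2.67 and 2.83 CPM in light and 1.42, 2.37 and 1.71 CPM in no-light libraries of the mixture experiment. The groups did not overlap, and the log2 fold change of 0.57 ± 0.29 did not pass the test (edgeR, adjusted p = 0.249). The groups of the single-drug experiment overlapped, at 0.22 ± 0.36. Kdr, Esam and Eng were thus the 3 of 10 members whose libraries did not overlap in the mixture experiment, where 30.2% of all genes tested had no overlap, and Kdr was the 1 of 10 in the single-drug experiment, where 40.3% had none.

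Pdgfrb, the pericyte receptor, had 6.23, 7.63 and 7.87 CPM in light and 4.92, 12.4 and 5.62 CPM in no-light libraries of the mixture experiment. In the single-drug experiment it had 11.8, 11.7 and 10.6 CPM in light and 14.3, 7.29 and 6.01 CPM in no-light libraries. One no-light library in each experiment was above all light libraries, and the log2 fold changes were -0.079 ± 0.39 and 0.30 ± 0.46.

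Taken as a set without Kdr, the 9 genes had a median log2 fold change of 0.045 in the mixture and 0.22 in the single-drug experiment, against 0.0069 and 0.018 over all genes tested. In the edgeR fit 0 of the 9 had an unadjusted p under 0.05 in either experiment, and DESeq2 and limma voom called 1 of the 10 members each. In whole retina, fewer cells of a type and less RNA per cell cannot be told apart. The light effects of the experiments did not differ detectably: for Kdr the difference, mixture minus single-drug, was 0.035 on the log2 scale (95% interval -0.55 to 0.62). In that test edgeR called 0 of 10 members, with 0 at an unadjusted p under 0.05, and DESeq2 and limma voom also called 0. Over all 16645 genes edgeR called 0 (0%), with 2518 at an unadjusted p under 0.05.

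**Figure D3:**
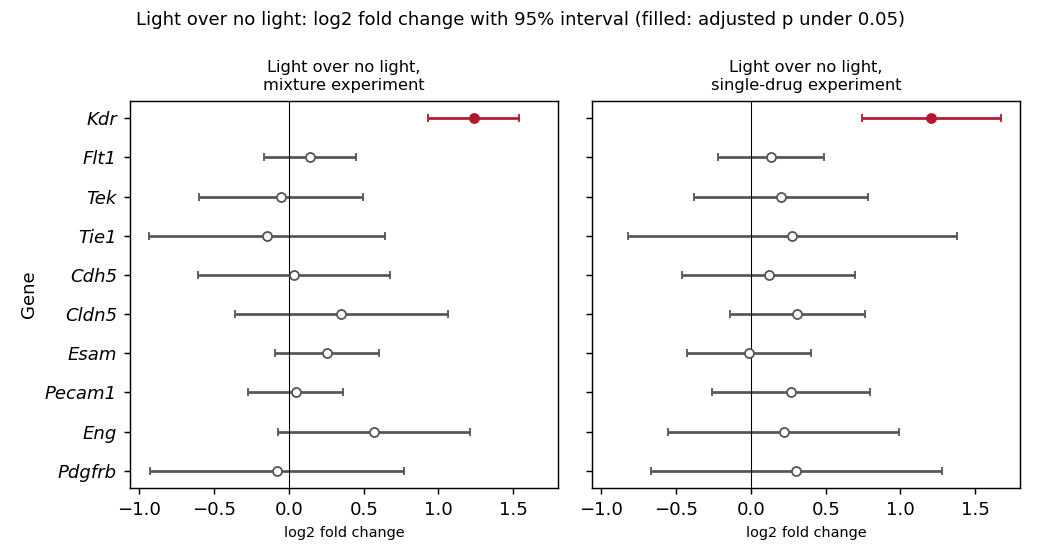
Log2 fold change of light over no light (horizontal axis) for the 10 genes (vertical axis) in the mixture (left) and single-drug (right) experiments, with 95% intervals and filled points for an adjusted p under 0.05. Kdr at 1.24 and 1.21 is the filled point in each panel, and the intervals of the other 9 genes include 0.

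The rise of Kdr went together with changes in markers of other retinal cells. Rod photoreceptor genes were among them. Gnat1, the rod transducin subunit, was called lower, and it was at 8067 to 9377 CPM in light and 14113 to 16922 CPM in no-light libraries of the mixture experiment, and at 4986 to 6762 CPM and 16076 to 17452 CPM in the single-drug experiment. Nrl, a rod transcription factor, and Pde6b, a rod phosphodiesterase subunit, were called lower in both experiments too, with log2 fold changes of -1.26 and -1.57 for Nrl and -0.96 and -1.28 for Pde6b. The 4 Müller glia markers (Glul, Rlbp1, Slc1a3 and Aqp4), all above 0, summed to 803 to 827 CPM in light and 1612 to 1954 CPM in no-light libraries of the mixture experiment, and to 922 to 1038 CPM and 1642 to 1987 CPM in the single-drug experiment. They did not move together: Glul, glutamine synthetase, fell (log2 fold changes -1.87 and -1.73), while Slc1a3, a glutamate transporter, rose (0.75 and 0.89), and the list medians were -0.20 and 0.022. In the mixture experiment the 3 astrocyte genes summed to 275 to 359 CPM in light and 34.0 to 80.7 CPM in no-light libraries. They were Gfap, Pdgfra and Pax2. Gfap, which reactive Müller glia also make, averaged 303 CPM in light and 28.2 CPM in no-light libraries. It held nearly all of the sum in light but not in no-light libraries. Pax2, the defining astrocyte gene, was at 0.527 CPM or less in both groups. The 6 leukocyte markers, all above 0, summed to 18.3 to 26.1 CPM in light and 18.6 to 22.1 CPM in no-light libraries of the mixture experiment, with overlap, and to 22.7 to 25.0 CPM and 18.03 to 20.1 CPM in the single-drug experiment, without overlap. Of these, 1 of 6 was called in each experiment, where 13.2% and 24% of all genes were. It was Cd68, a lysosomal protein of macrophages, which rose in both (log2 fold changes 2.19 and 1.92). The list medians were 0.18 and 0.48. The 9 pigment epithelium and choroid markers overlapped in the mixture experiment, at 248 to 990 CPM in light and 265 to 613 CPM in no-light libraries. The part of these cells in the rise of Kdr was not tested.

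The next question was whether drugs given before light left the vascular genes different from light alone. Kdr was lower than in light with both mixtures and with all 4 single drugs, and not detectably different from no light. The intervals given below are wide enough that part of the rise may remain. The calls with MTP, TAM and DOX were lost when certain single libraries were left out. Eng was lower with BMT. The other 8 genes were not called with any drug.

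In the mixture experiment Kdr had 90.2, 96.1 and 65.6 CPM with BMT and 86.5, 75.2 and 96.1 CPM with MDB, against 201, 181 and 160 CPM in light. No drug library reached the lowest light library. The log2 fold change was -1.11 ± 0.14 with BMT (edgeR, adjusted p = 0.000358) and -1.07 ± 0.14 with MDB (edgeR, adjusted p = 0.000518). In the authors' deposited table the log2 fold changes of Kdr-001 against light were -1.13 with BMT and -1.07 with MDB.

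In the single-drug experiment Kdr had 97.1, 102 and 103 CPM with BRM, the tightest of the drug groups, against 175, 287 and 167 CPM in light. It had 96.6, 115 and 135 CPM with MTP, 111, 136 and 102 CPM with TAM and 85.0, 109 and 127 CPM with DOX. All 12 drug libraries were below all 3 light libraries. The log2 fold changes against light were -1.06 ± 0.22 with BRM (edgeR, adjusted p = 0.00606), -0.86 ± 0.22 with MTP (0.0204), -0.85 ± 0.22 with TAM (0.0204) and -0.97 ± 0.22 with DOX (0.0118). The authors' deposited table gives Kdr-001 values of -1.02, -0.84, -0.83 and -0.96 for the same 4 drugs. The calls with MTP, TAM and DOX rested in part on light replicate 2: without it the log2 fold changes were -0.55, -0.55 and -0.66 (edgeR, adjusted p = 0.140, 0.134 and 0.0901), while the BRM call held in every alternative run. They were also lost without MTP replicate 1 or 2, TAM replicate 1 or 3 and DOX replicate 1 (adjusted p from 0.0562 to 0.115). Without TAM replicate 2, the library that stood apart, the TAM value was -0.98 (edgeR, adjusted p = 0.0147).

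Glial and photoreceptor markers also differed from light here, though not all of them with every drug. Gfap was called lower than in light with BMT, MDB and BRM, but not with MTP, TAM or DOX. Gfap was at 28.6 to 81.3 CPM with BMT and 28.6 to 52.9 CPM with MDB, against 261 to 340 CPM in light, and at 38.5 to 75.0 CPM with BRM, 81.3 to 119 CPM with MTP, 25.0 to 258 CPM with TAM and 167 to 217 CPM with DOX, against 264 to 301 CPM in light. The Müller glia markers summed to 1467 to 1877 CPM with BMT and 1775 to 1882 CPM with MDB, against 803 to 827 CPM in light. The sums were 1958 to 2143 CPM with BRM, 1669 to 2057 CPM with MTP, 885 to 1854 CPM with TAM and 1267 to 1506 CPM with DOX, against 922 to 1038 CPM in light, so that TAM alone overlapped light. Within the list Glul was higher than in light with BMT and MDB (log2 fold changes 1.85 and 1.94) and Slc1a3 lower (-0.58 and -0.55), and with each single drug both were called in these directions too. Gnat1 was at 13501 to 17433 CPM with BMT and 11913 to 13755 CPM with MDB, against 8067 to 9377 CPM in light, and it was also called higher than in light with each single drug. Their part in the lower Kdr was not tested.

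Against the no-light groups, Kdr was not detectably different with any drug. The log2 difference was 0.13 (95% interval -0.17 to 0.43) with BMT, 0.16 (-0.14 to 0.46) with MDB and 0.15 (-0.32 to 0.61) with BRM. It was 0.35 (-0.11 to 0.81) with MTP, 0.35 (-0.11 to 0.82) with TAM and 0.23 (-0.23 to 0.70) with DOX. In these 6 comparisons edgeR called 0 genes in each (0%), with 1009 to 2535 at an unadjusted p under 0.05, and of the members 1 with BMT (Tek, lower), 2 with MDB (Pecam1 and Tie1, lower) and 0 with the single drugs had an unadjusted p under 0.05. DESeq2 and limma voom called 0 members in each. Libraries lay below all no-light libraries for 3 of 10 members with BMT (Pecam1, Cdh5 and Tek, where 9.17% of all genes had no overlap) and 3 with MDB (Pecam1, Cdh5 and Tie1, against 14.6%). With MTP this held for Cldn5, where 15.9% of all genes had no overlap, while with BRM, TAM and DOX 0 of 10 members lay apart from no light, against 25.3%, 11.1% and 17.7% of all genes. For Kdr the mixtures differed by -0.033 (95% interval -0.33 to 0.27), BMT minus MDB, and the alpha-1 blockers by 0.12 (-0.34 to 0.58), TAM minus DOX. In these 2 comparisons edgeR also called 0 of 10 members (0% of all genes, with 3001 and 2519 genes at an unadjusted p under 0.05), 1 member (Tie1, higher with BMT than with MDB) and 0 had an unadjusted p under 0.05, and DESeq2 and limma voom called 0 members. Tie1 was also the 1 of 10 members without overlap between the mixtures (27% of all genes), and TAM and DOX overlapped for all 10 (16.7% of all genes did not).

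With BMT, 2 of 10 members were called lower than in light, against 17.7% of 16007 genes called in either direction and 9.78% called lower. Beside Kdr this was Eng, with 1.32, 1.5 and 0.939 CPM with BMT against 2.68, 2.67 and 2.83 CPM in light. The groups did not overlap, and the log2 fold change was -1.11 ± 0.30 (edgeR, adjusted p = 0.0254). The call was lost when any 1 light library, or BMT replicate 1 or 3, was left out (adjusted p from 0.0586 to 0.0993). It was also lost when the most abundant Eng transcript alone was tested (-0.52, adjusted p = 0.937), where eXpress gave that transcript between 0 and 91.9% of Eng counts in single libraries. Reads of Eng overlap Fpgs on the opposite strand and small RNA genes on the same strand, and the library kit kept the strand.

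Most other members had lower values than light with BMT without passing the test. Pecam1 had 4.13, 3.94 and 3.54 CPM with BMT and 5.0, 5.07 and 4.84 CPM in light, with no overlap, at -0.36 ± 0.15 (edgeR, adjusted p = 0.111). Esam was at -0.46 ± 0.16 (adjusted p = 0.0694), Cldn5 at -0.75 ± 0.33, Cdh5 at -0.68 ± 0.30 and Tek at -0.57 ± 0.25. Flt1 at -0.062 ± 0.14 and Tie1 at 0.038 ± 0.36 were near 0. Of the 9 members other than Kdr, 8 had negative values and 6 an unadjusted p under 0.05, with a median of -0.46. Of all 16007 genes 52.3% had negative values and 5197 an unadjusted p under 0.05, with a median of -0.018. In all, 6 of 10 members had no overlap with light, where 39.1% of all genes had none.

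With MDB, 1 of 10 members (Kdr) was called, against 9.63% of 16007 genes called and 5.93% called lower. Of the other 9, 8 had negative values and 3 an unadjusted p under 0.05, with a median of -0.46. Of all 16007 genes 49.6% had negative values and 3733 an unadjusted p under 0.05, with a median of 0.0022. Pecam1 had 4.01, 3.64 and 3.35 CPM with MDB, below all 3 light libraries, at -0.44 ± 0.15 (edgeR, adjusted p = 0.0882). Eng was at -0.84 ± 0.30 (adjusted p = 0.107), Cdh5 at -0.68 ± 0.30 and Tie1 at -0.79 ± 0.38. Both mixtures share the light libraries, so the values of the mixtures against light are not independent. In all, 7 of 10 members had no overlap with light, where 33.2% of all genes had none.

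Pdgfrb went the other way with MDB, with 12.3, 8.66 and 11.9 CPM against 6.23, 7.63 and 7.87 CPM in light, without overlap, at 0.60 ± 0.39 (edgeR, adjusted p = 0.403). The MDB libraries also had high lens scores of 7.29 to 7.70, against 2.23 to 6.34 in light, and 24.7 to 29.8 CPM of summed fibroblast markers, against 9.46 to 17.6 CPM. With the lens score as a covariate the Pdgfrb value was -0.070. In the single-drug experiment Pdgfrb was highest with BRM, at 14.1, 12.7 and 18.6 CPM against 11.8, 11.7 and 10.6 CPM in light (0.41 ± 0.45), where lens scores were 6.94 to 9.05 against 6.08 to 6.55 and the fibroblast sum 20.9 to 54.0 CPM against 14.6 to 20.1 CPM. The part of lens or fibroblast RNA in these Pdgfrb values was not tested further. Rgs5, another pericyte gene, was called lower than in light in the same comparisons. Its log2 fold change was -0.56 ± 0.15 with MDB (edgeR, adjusted p = 0.0321) and -0.47 ± 0.14 with BRM (edgeR, adjusted p = 0.0386). Rgs5 was not called with BMT, MTP, TAM or DOX. The mural genes did not move as one. Of the further mural genes, Mylk was called higher than in light with MDB and with BRM, and Mcam lower with MDB. The medians of the 19 tested genes of that list were 0.027 with MDB and 0.28 with BRM.

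With each single drug, Kdr was the 1 of 10 members called. The share of all genes called was 14.4% with BRM, 10.3% with MTP, 10.6% with TAM and 11.9% with DOX, all of 16249, and the share called lower was 7.32%, 4.91%, 4% and 5.06% in the same order. The other 9 members had medians of -0.022, -0.34, -0.32 and -0.15 for BRM, MTP, TAM and DOX, against 0.00056, -0.0050, -0.022 and -0.031 over all genes, and all 9 were negative with MTP and with TAM. Pecam1 had 4.29, 3.97 and 3.73 CPM with BRM, below the 6.52, 5.89 and 5.26 CPM in light, at -0.56 ± 0.25 (edgeR, adjusted p = 0.148). No overlap with light was found for 3 of 10 members with BRM (39.5% of all genes), 3 with MTP (29.7%), 2 with TAM (27.7%) and 1 with DOX (31.4%), and Pdgfrb with BRM was the one of these that was higher. Flt1 stayed between -0.19 (DOX) and -0.022 (BRM) with the 4 drugs.

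**Figure D4:**
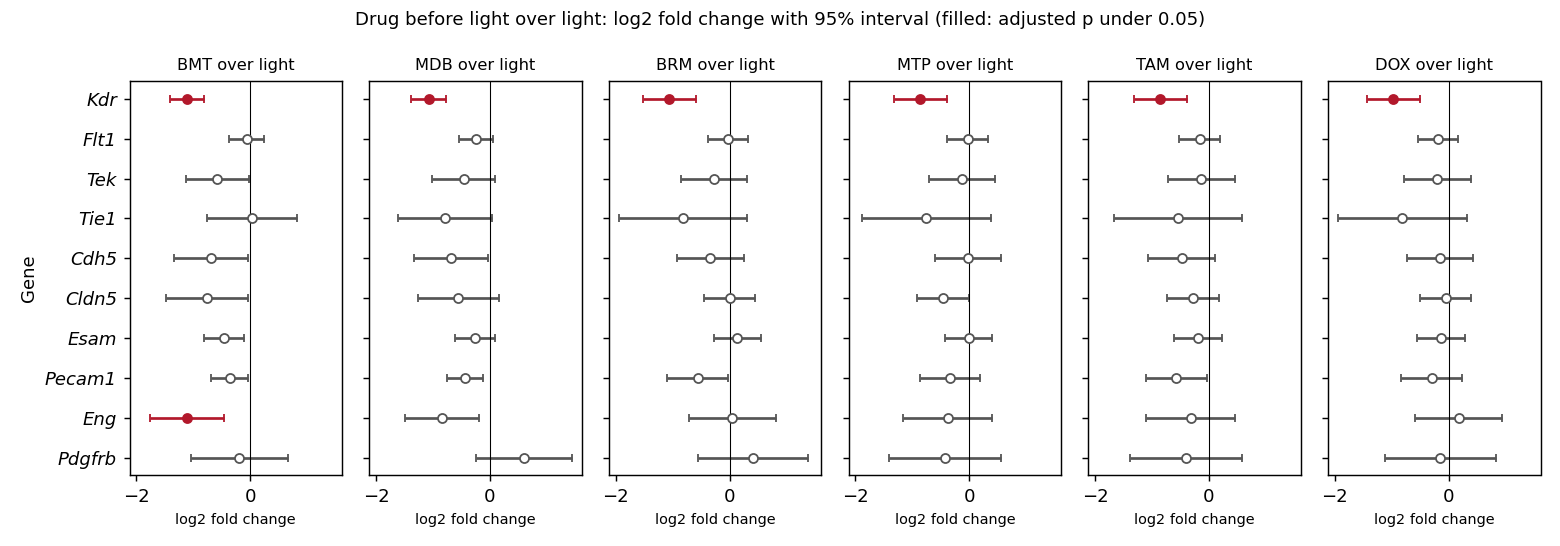
Log2 fold change of drug before light over light (horizontal axis) for the 10 genes (vertical axis), with 95% intervals and filled points for an adjusted p under 0.05; panels from left to right are BMT and MDB in the mixture experiment and BRM, MTP, TAM and DOX in the single-drug experiment. Kdr is filled in all 6 panels, from -1.11 (BMT) to -0.85 (TAM), and Eng with BMT is the other filled point.

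The soluble and membrane forms of Flt1 were both expressed. Flt1-001, the membrane form, held 58.0 to 80.1% of Flt1 counts (median 70.3%) and Flt1-002, the soluble form, 19.9 to 42.0% (median 29.7%). The soluble share was 20.7 to 25.8% in light and 26.1 to 35.5% in no-light libraries of the mixture experiment, without overlap. In the single-drug experiment it was 26.6 to 31.6% in light and 25.8 to 30.5% in no-light libraries, with overlap, so the lower share in light was seen in 1 of the 2 experiments. Fitted as transcripts, Flt1-001 had a log2 fold change with light of 0.28 ± 0.16 and Flt1-002 of -0.28 ± 0.26 in the mixture experiment, and of 0.14 and 0.20 in the single-drug experiment. Neither was called in either, where 2.82% of 39616 and 5.12% of 42122 transcripts were. Reads within the shared exons were divided between the forms by estimate in eXpress. Only reads across or past the stretches printed above, or in later exons, separate the forms.

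**Figure D5:**
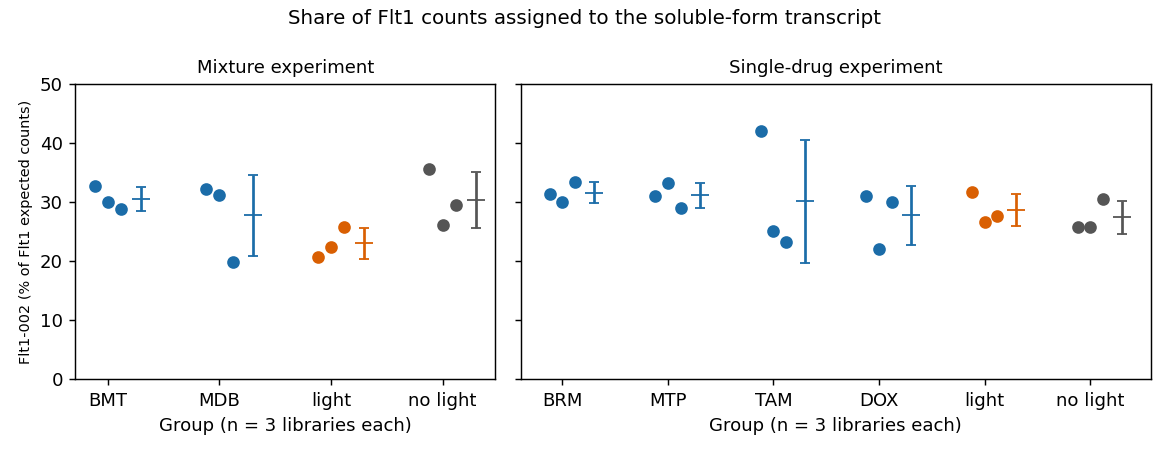
Share of Flt1 expected counts assigned to Flt1-002, the soluble-form transcript, in percent (vertical axis) by group, with 1 point per library and the mean ± SD beside the points (n = 3 each). Light lies below no light in the mixture experiment (20.7 to 25.8% against 26.1 to 35.5%) and overlaps with it in the single-drug experiment.

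The other genes of the pathways were described by lists. Of the ligands and co-receptors, Nrp1, the neuropilin that pairs with the Kdr receptor, averaged 19.0 ± 0.68 CPM in light and 11.3 ± 1.28 CPM in no-light libraries of the mixture experiment (SD, n = 3 each), a log2 fold change of 0.74 ± 0.12 (edgeR, adjusted p = 0.00184). Vegfa itself averaged 74.7 ± 5.06 CPM in light and 73.8 ± 8.72 CPM in no-light libraries, at 0.015 ± 0.10, and 0.052 ± 0.080 in the single-drug experiment, so the ligand did not pass the test while its receptor did. In the mixture experiment 3 of 22 tested list genes rose (Nrp1, Tgfb2 and Smad5) and in the single-drug experiment 5 of 24 (those and Nrp2 and Angpt1), where 7.75% and 11.4% of all genes were called higher. Smad5, a transducer of bone morphogenetic protein signals, rose by 1.07 ± 0.076 and 0.81 ± 0.18. Relative to light, 3 genes of this list were lower with BMT (Nrp1, Tgfb2 and Smad5) and 2 with each of the other drugs, where 4% (TAM) to 9.78% (BMT) of all genes were called lower.

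Of 30 further endothelial genes, 3 of 25 tested rose with light in the mixture experiment (Ets1, Vwf and Podxl) and 4 of 28 in the single-drug experiment (Ets1, Ramp2, Vwf and Ecscr), where 7.75% and 11.4% of all genes were called higher. The list medians were 0.33 and 0.39. Podxl averaged 378 CPM in light and 279 CPM in no-light libraries of the mixture experiment, where Pecam1 averaged 4.97 and 4.82 CPM. Which cells made the Podxl RNA was not tested. Vwf, the clotting factor that endothelium and platelets store, averaged 11.3 ± 1.15 CPM in light and 5.19 ± 0.73 CPM in no-light libraries of the mixture experiment, at 1.12 ± 0.28 (edgeR, adjusted p = 0.0207). The 4 platelet markers summed to 1.71 to 2.40 CPM in light and 0.305 to 1.19 CPM in no-light libraries there, nearly all Itga2b, with Gp9 at 0 in all of them, and their part in Vwf was not tested. Ets1, an ETS factor that leukocytes express too, rose by 0.74 ± 0.20 and 1.08 ± 0.28. Relative to light, 8 of 25 were lower with BMT (Robo4, Ptprb, Ets1, Vwf, Nos3, Cd93, Rasip1 and Mmrn2; median -0.63) and 7 of 25 with MDB (median -0.64), and 2 with BRM (Ets1 and Cd93), 1 with MTP and 1 with TAM (Rasip1 in both). The shares of all genes called lower were 9.78% with BMT, 5.93% with MDB, 7.32% with BRM, 4.91% with MTP and 4% with TAM. With DOX edgeR called 0 of 28, with 4 at an unadjusted p under 0.05, and DESeq2 and limma voom called 2 each.

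Of 17 genes of the barrier and its Norrin pathway, Ndp, the ligand of that pathway, rose by 1.60 ± 0.16 (edgeR, adjusted p = 8.5e-05) and 1.73 ± 0.31 with light, and it was lower with every drug than in light. Abcg2, an efflux pump, rose by 0.48 ± 0.13 and 0.85 ± 0.16 and was also lower with every drug. These were the 2 of 17 called in the mixture experiment, and Tspan12 and Lsr made 4 of 17 in the single-drug experiment. Of all genes, 7.75% and 11.4% were called higher. The list medians were -0.070 and 0.15.

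Of 21 further mural genes, 19 were tested, and 1 rose and 1 fell with light in the mixture experiment and 2 each in the single-drug experiment (Rgs5 and Mcam, and Mylk and Myh11). Of all genes tested, 13.2% and 24% were called in either direction, so these counts were not above the background. Myh11, the smooth muscle myosin, averaged 1.65 ± 0.72 CPM in light and 29.3 ± 46.7 CPM in no-light libraries, so its no-light libraries were far from each other. In the same group replicate 1 had 60.6 CPM of summed fibroblast markers, against 11.1 and 11.7 CPM in the other 2, and 1062 CPM of pigment epithelium and choroid markers, against 341 and 203 CPM. Mcam, an adhesion molecule of pericytes and endothelium, rose by 1.28 ± 0.16 and 1.21 ± 0.33. Mylk, the myosin light chain kinase, had log2 fold changes of -0.72 ± 0.12 and -1.24 ± 0.21. It averaged 100 CPM in light and 165 CPM in no-light libraries of the mixture experiment, where Pdgfrb averaged 7.24 and 7.65 CPM. Which cells made the Mylk RNA was not tested. Rgs5, a defining pericyte gene, averaged 63.9 ± 14.4 CPM in light and 56.4 ± 4.61 CPM in no-light libraries of the mixture experiment and did not pass the test (0.18 ± 0.14), but rose by 0.59 ± 0.14 in the single-drug experiment (edgeR, adjusted p = 0.00737). Of 7 tested genes of endothelial activation and leakage, 2 rose and 1 fell with light in each experiment, where 13.2% and 24% of all genes were called. The list medians were 0.14 and 0.55. Vcam1 rose by 1.5 ± 0.22 and 1.77 ± 0.25 and Icam1 by 2.67 ± 0.45 and 2.67 ± 0.55. Both are adhesion molecules that glia and leukocytes can also express. Icam1 was low, at 1.60 ± 0.11 CPM in light and 0.249 ± 0.14 CPM in no-light libraries of the mixture experiment. Apln, a peptide of sprouting endothelium, was low throughout and fell with light by 3.42 and 2.51 on the log2 scale, at 0.133 ± 0.0201 CPM in light and 1.47 ± 0.47 CPM in no-light libraries of the mixture experiment. Plvap, a marker of leaky endothelium, did not pass the test with light (0.35 ± 0.28 and 0.55 ± 0.24). Nor did the glucose transporter Slc2a1 (-0.33 and -0.42), the muscle filament gene Des (1.38 and -0.30), the actin-binding Tagln (1.06 and -2.77) or the Notch target Hey1 (-0.19 and 0.22).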

How the data were processed

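RNA of neural retina was prepared with a stranded mRNA kit, per the labels' protocols. The submitters' processing notes name Trimmomatic, Bowtie2, TopHat2, eXpress, edgeR, limma and GRCm38.p3, without versions of the tools. The authors deposited expected counts (eXpress effective counts) of 102906 transcripts, not normalized, and FPKM values from eXpress, deposited by the authors, which are used here for levels between genes. Log2 fold changes against light and an adjusted p-value over all groups stand in the authors' deposited tables. The normalized FPKM tables were not used.

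Expected counts were summed per gene and rounded, filtered with filterByExpr and scaled by TMM. Each experiment was fitted by itself with all its groups, since the labels say that they were performed separately, with a two-sided quasi-likelihood test (edgeR 4.0.16, R 4.3.3). Calls needed p under 0.05 after Benjamini-Hochberg adjustment over all genes tested, in each of 17 comparisons. The SE is the absolute log2 fold change over the square root of F. Log2 CPM uses a prior count of 1. Flt1 coordinates come from GENCODE vM21, whose starts and ends of the printed transcripts equal those in the files. DESeq2 1.42.0 and limma voom (limma 3.58.1) were alternatives. The test was checked on simulated counts.

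The members and lists were chosen with earlier results of these data known. The genes named from a list are the 4 with the smallest p for light in the mixture experiment, with Vwf, Plvap, Vegfa and Rgs5 always included, and those behind a count of 5 or fewer; Robo4, Ptprb, Nos3, Mmrn2, the other genes named in longer counts and the single marker genes of other cell types were chosen after their values were seen. The sum of the rod marker list is not reported here. Counting error sets the precision of low genes: a library with 12.6 counts of Cdh5 is far less precise than one with 1187 counts of Kdr.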

Additional observations from a re-analysis of the deposited data

How the results depend on the processing

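Kdr was called in all 20 alternatives for light against no light and for BMT and MDB against light in the mixture experiment and in all 26 for light and BRM in the single-drug experiment. The number of members called changed in these cases. BMT against light gave 1 with the most abundant transcript, and 1 to 3 with a library left out (the 3 being Kdr, Eng and Esam). MDB gave 2 with the lens-fibre score (Kdr and Eng, with Eng at -1.13, adjusted p = 0.0348). BRM gave 2 with only its 2 groups fitted (Kdr and Pecam1) and 1 to 2 with a library left out. MTP gave 0 with the most abundant transcript and 0 to 1 with a library left out. TAM gave 0 with only its 2 groups fitted, 0 with the most abundant transcript and 0 to 2 with a library left out. DOX gave 0 with only its 2 groups fitted and 0 to 1 with a library left out. The cause of these changes was not tested.

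Signs turned only for values that did not pass the test. Pdgfrb with light in the mixture experiment was 0.038 with limma voom, 0.0031 with the replicate block, 0.24 with the lens-fibre score and 0.055 as a transcript, and Pdgfrb with MDB was -0.070 with the lens-fibre score. As transcripts, Tek with light was 0.97 in the mixture experiment, Esam 0.13 and Eng -0.50 in the single-drug experiment, and Pecam1 with TAM 0.24. With a library left out, light in the mixture experiment ranged from -0.00016 to 0.12 for Pecam1, -0.092 to 0.17 for Cdh5, -0.27 to 0.16 for Tek, -0.33 to 0.15 for Tie1 and -0.32 to 0.44 for Pdgfrb. Light in the single-drug experiment ranged from -0.019 to 0.22 for Cdh5, -0.12 to 0.87 for Tie1, -0.087 to 0.13 for Esam and -0.030 to 0.42 for Eng. BMT against light ranged from -0.15 to 0.10 for Flt1, -0.11 to 0.21 for Tie1 and -0.62 to 0.12 for Pdgfrb, and the Kdr difference between the experiments from -0.11 to 0.31.

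Same-numbered libraries did not deviate together (correlations from -0.22 to 0.56 and from -0.26 to 0.44), and 2 of 12 and 7 of 18 libraries correlated best with their own number. The replicate block left every count of members as it was, at 1 and 1 for light, 2 for BMT and 1 for each other drug against light. RLE size factors shifted the log2 fold changes of the members by a median of at most 0.0277, in absolute size, in any comparison.

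Over all genes, 2117 were called for light in the mixture experiment, and 1310 to 2781 with a library left out, and in the single-drug experiment 3895, and 2550 to 4027. Against light the counts, with the range in brackets, were 2840 (1514 to 3304) for BMT, 1542 (919 to 1854) for MDB, 2341 (910 to 2562) for BRM, 1671 (801 to 1959) for MTP, 1722 (597 to 2446) for TAM and 1927 (443 to 2283) for DOX. As transcripts the counts were 1117 and 2155 for light, then 1231, 760, 789, 628, 659 and 540 in the same order of drugs. With only its 2 groups fitted TAM gave 298 and DOX 1065, and with the lens-fibre score MTP gave 1105. Where edgeR called 0, DESeq2 called 13 (BMT), 22 (MDB), 381 (BRM), 3 (MTP), 7 (TAM) and 11 (DOX) against no light, 617 between the mixtures, 109 between TAM and DOX and 410 for the difference of the light effects, where limma voom called 11. For BRM against no light limma voom and the unfiltered fit called 1, for DOX against no light the fit of 2 groups called 34, and as transcripts 1 was called for TAM against no light and 3 between TAM and DOX. With a library left out these comparisons had 0 to 126 calls. Low counts limit Tie1, Cdh5 and Eng most.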

Other observations

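The genes whose log2 CPM followed the mean of the 9 endothelial members most closely, by the lower of the Pearson r over the 12 libraries of the mixture and the 18 of the single-drug experiment, were Atp2b4 (0.83), Cemip (0.82), B3galt1 (0.81), Shisa6 (0.80), Rasgrp1 (0.80), Trio (0.78), Znfx1 (0.78) and Rasa3 (0.77), out of 12919 candidates. None of them is on the endothelial lists used here. Libraries share groups, depth and scaling, so these are descriptions. The 9 endothelial members themselves had r between 0.26 and 0.85 with the mean of the others in the mixture experiment and between 0.16 and 0.68 in the single-drug experiment.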
